A study of Rattus norvegicus with 2 samples.

Results

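The genes described here encode the proteins of the cytosolic ribosome. A gene was a member when a probe set of the array listed its symbol as the only gene and the symbol was Rpl or Rps followed by a digit, or Rpsa, Rplp0, Rplp1 or Rplp2. Pseudogenes and the Rps6k kinases were left out. This gave 44 of the 10411 genes on the array, 30 named for the large and 14 for the small subunit, and each was read by its brightest probe set. Of the 44, 41 passed a brightness filter, a mean log2 intensity at or above 8.99, the median of all probe sets. They are called measured below, 28 of the large and 13 of the small subunit.

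The cells were A7r5, an established smooth muscle line from embryonic rat aorta. Both groups were infected with adenovirus for 72 hours at a multiplicity of 10 in medium with 5.5 mM glucose. In the GLUT1 group the virus carried the human GLUT1 cDNA, a glucose transporter, and in the control group it was empty. RNA of 3 days was pooled per group and each pool was read on 1 array, so there are 2 arrays, no replicate check, and no test or p-value for any difference below. The transgene is human and A7r5 is 1 line, which limits the groups as a model of a vessel. How precise a value can be is limited by the number of arrays.

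The ribosome turns mRNA into protein. Its small subunit binds the mRNA and reads the codons, and its large subunit joins the amino acids and holds the exit tunnel for the new chain. Nearly all of its proteins are present in equal numbers per ribosome, and their mRNAs are among the most abundant of a growing cell. In mammals these mRNAs start with a C and a run of pyrimidines, the terminal oligopyrimidine (TOP) motif. Through it the growth kinase mTORC1 controls how well they are translated. An array reads the amount of mRNA and says nothing about its translation.

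The start regions are shown for 6 genes because each carries a result. Rpl21 and Rpl24 had the lowest ratios, Rpl12 and Rpl19 the highest of the bright members, Rps23 the strongest signal, and Rpsa 3 probe sets that read alike. Each line gives 30 bases before and 30 bases from the annotated start on, 5′ to 3′, from RefSeq on build GRCr8, with the letters CTTTCC in capitals. Rpl21 lies on the minus strand of chr12:13386124-13386183 and Rpl24 on the minus strand of chr11:58128376-58128435. Rpl12 lies on the plus strand of chr3:36661910-36661969 and Rpl19 on the plus strand of chr10:83519034-83519093. Rps23 lies on the plus strand of chr2:23814487-23814546 and Rpsa on the plus strand of chr8:128728849-128728908.
Rpl21: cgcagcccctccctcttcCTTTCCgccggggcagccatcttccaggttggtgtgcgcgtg
Rpl24: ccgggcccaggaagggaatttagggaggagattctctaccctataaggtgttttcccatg
Rpl12: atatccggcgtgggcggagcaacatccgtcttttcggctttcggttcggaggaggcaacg
Rpl19: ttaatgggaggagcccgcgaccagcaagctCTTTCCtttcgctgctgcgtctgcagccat
Rps23: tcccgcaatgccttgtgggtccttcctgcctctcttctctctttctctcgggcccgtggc
Rpsa: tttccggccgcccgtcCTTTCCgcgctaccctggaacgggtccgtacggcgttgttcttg

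A RefSeq start region was matched by gene ID for 35 of the 41 measured members. In the 20 bases around the start, 10 on each side, C or T made up a median of 70% in the members and 50% over all 27457 start regions. A share of at least 70% was found in 21 of the 35 members, against 11.1% of all regions. Rps23, with 95%, had the highest share among the members, and Rpl23 and Rpl35a followed at 90%. Not all members had it around the annotated start. Rpl24, Rpl6, Rpl7a and Rps3 were at 45%, and Rpl18, Rpl26, Rpl41, Rps16 and Rpl7l1 at 40%. The first annotated base was a C in 13 of 35 members, or 37.1%, against 24.2% of all regions. Whether the annotated starts are the first bases of the mRNAs in these cells was not tested. A low share or another first base therefore does not show that an mRNA lacks the motif.

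The letters CTTTCC on the gene's own strand within the 60 bases shown occurred in 10 members, or 28.6%, against 2.68% of all regions. In Rpl19 they begin at the start base itself, and in Rpl21 they begin 12 bases before it. Over the 300 bases of the table and both strands, CTTTCC or GGAAAG occurred in 42.9% of members and 26.4% of all regions. Over the same 300 bases and both strands, CCGGAAG, a core bound by ETS factors, was found in 25.7% of members against 9.22% of all regions. AAGATGG, letters read by YY1 that can also include a start codon, was found in 22.9% against 7.30%. GGGCGG, the GC box, was found in 21 of the 35 members against 34.9%, and the TATA letters TATAAA in 14.3% against 14.3%. These matches describe letters only, and CTTTCC and CCGGAAG can share their CC. The 27457 regions include genes that were not measured here. Whether the higher shares of letters, and of C or T above, are particular to ribosomal protein genes was not tested. The 10 members with CTTTCC near the start had a median log2 ratio of -0.025, with 7 below 0, and the other 25 had 0.016, with 11 below 0. Of all measured genes 47.8% were below 0. The ranges of both sets of members reached from about the same low end, -0.23 with and -0.22 without the letters.

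Both arrays had a median intensity of 508. Their means were 1497 on the GLUT1 array and 1500 on the control array. The deposited values thus had nearly the same level on both arrays and cannot show a change in total mRNA. Of 8 smooth muscle markers 7 were measured, with Acta2 at 16687 in the GLUT1 pool and 16303 in the control pool. Smtn was the dimmest of the 7, at 2258 and 1980, and Myh11 was below the filter at 228 and 227. Summed over the 8 genes, smooth muscle signal was 51815 on the GLUT1 array and 51377 on the control array. Of the endothelial list 1 of 5 genes on the array was measured, with a summed signal of 826 and 978. For leukocytes it was 2 of 6, at 3206 and 3484. For epithelium and fat it was 1 of 5, at 6906 and 6468, and for skeletal muscle 1 of 5, at 3337 and 3371. The measured genes of these lists were Esam of endothelium at 479 in the GLUT1 pool and 584 in the control pool, the leukocyte genes C1qb at 1014 and 1352 and Cd14 at 1398 and 1235, the keratin gene Krt8 at 6500 and 6193, and the skeletal actin gene Acta1 at 2240 and 2339. C1qb had a log2 ratio of -0.41, or -2.82 times its local spread. The defining Pecam1 and Ptprc lay under the intensity floor of 175 on both arrays. The cells were 1 established line, so signal of these lists need not stand for other cell types in the culture. The source of that signal was not tested. In RNA from whole cultures, fewer cells with a given mRNA and less of it per cell cannot be told apart.

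Ribosomal protein probe sets were among the brightest of the array. The 41 measured members had a median intensity of 22989 on the GLUT1 array and 22983 on the control array, against 1597 and 1592 for the other 6073 measured genes. Of the measured members, 38 lay in the brightest 10% of measured genes. Among the 100 probe sets with the strongest signal, 28 were members on the GLUT1 array and 26 on the control array. Among the strongest 50 there were 12 on each. Probe sets bind their targets with different strength, so the order of their signals is not an order of mRNA amounts.

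**Figure D1:**
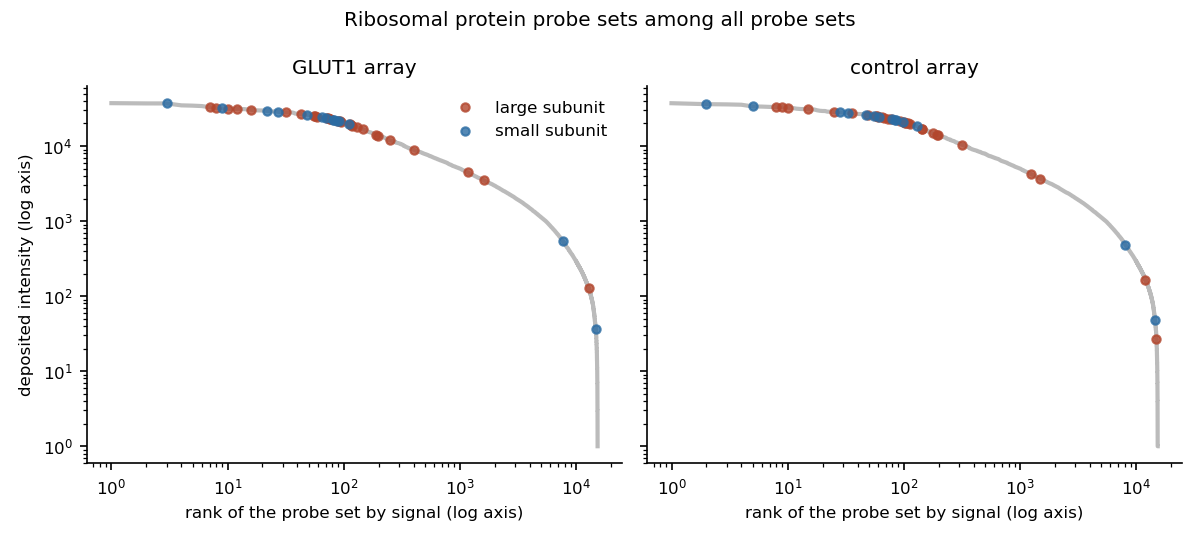
Deposited intensity of each probe set (vertical, log axis) against its rank by signal (horizontal, log axis) on the GLUT1 array (left) and the control array (right). The grey curve holds all probe sets with a value above 0, without manufacturer's controls, and the points are the members of the large and small subunit. Most members sit at the bright end, and Rps27l at 542 and 485 and the members under the filter lie far down the curve.

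The 44 members, 0.277% of the probe sets, gave 3.83% of the summed signal of the GLUT1 array and 3.85% of that of the control array. The log2 ratio of the summed signal was -0.0055. The large subunit members gave 2.52% and 2.54%, and the small subunit members 1.31% and 1.31%. The summed ribosomal signal therefore made up nearly the same share of both arrays. With a single probe set per named gene in the total, the share was 5.09% on the GLUT1 array and 5.12% on the control array.

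The mRNAs of the ribosomal proteins had nearly the same signal with and without GLUT1. Over the 41 measured members the median log2 ratio, GLUT1 over control, was -0.0066, beside 0.0064 over all 6114 measured genes. No member was 2-fold higher or lower, where 0.0164% of all measured genes were 2-fold higher and 0% lower. At 1.1-fold, 1 member was higher (background 14.7%) and 2 were lower (background 12.6%). These backgrounds hold mostly dimmer genes. In the brightest decile, 25 of the 574 other genes were 1.1-fold higher and 23 lower. Of the 38 members there, 0 were higher and 2 lower, so the counts do not show the members to be steadier than other bright genes. There were 23 members below 0, or 56.1%, against 47.8% of all measured genes, and 18 above 0, against 52.2%.

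The members also lay close together. Of the 41, 36 had a log2 ratio within 0.1 of 0, or 87.8%, against 58.5% of all measured genes. Brightness moves with this share, since 78.2% of the 574 other genes in the brightest 10% lay within 0.1, and 89.5% of the 38 members there. The SD of the log2 ratios was 0.079 over the 41 members, 0.075 over the 38 bright members and 0.084 over the 574 other bright genes. The 574 had a median log2 ratio of 0.0013, and the 38 had -0.0087. The 574 were dimmer, with a median intensity of 8418.5 in the GLUT1 pool and 8411 in the control pool. The 38 had 23333 and 23601. Whether members lie closer together than genes of equal brightness was not tested. The local spread, the scaled median absolute deviation of the log2 ratios of measured probe sets of like brightness, was 0.073 for most members. It holds array noise and real differences together. A distance of at least 2 local spreads from 0 was reached by 2 members, or 4.88%, beside 5.48% of all measured genes. Members share an array and a brightness range and are not replicates of each other.

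**Figure D2:**
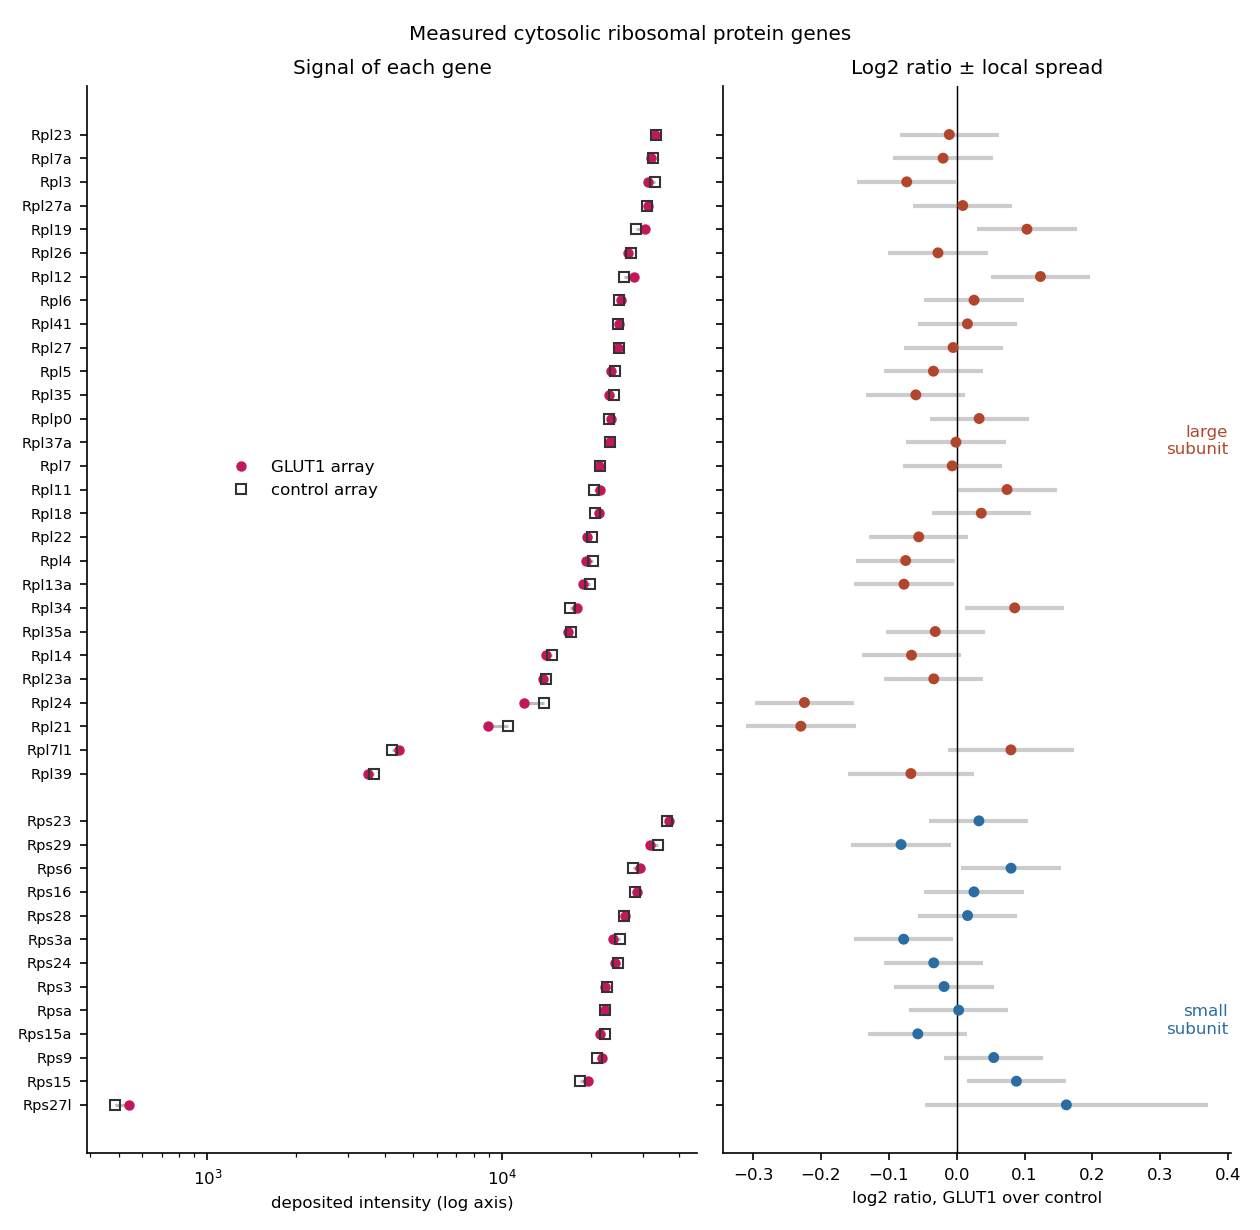
Left, deposited intensity (log axis) of the 41 measured members on the GLUT1 array (filled circles) and the control array (open squares), large subunit above and small subunit below. Right, their log2 ratio, GLUT1 over control, with bars of 1 local spread on each side. The pairs lie farthest apart for Rpl21, Rpl24 and the dim Rps27l, of which Rpl21 and Rpl24 are at least 2 local spreads from 0.

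In the large subunit, Rpl21 and Rpl24 had the lowest log2 ratios. They are the 2 members at least 2 local spreads from 0, and at 4.88% of members their share is close to the 5.48% of all measured genes and the 5.23% of other bright genes. Rpl21, a structural protein of the large subunit that is linked to hereditary hair loss in humans, was read at 8937 in the GLUT1 pool and 10489 in the control pool, a log2 ratio of -0.23 and -2.82 times its local spread. Rpl24, which reaches from the large towards the small subunit and forms a bridge between them, was read at 11869 in the GLUT1 pool and 13879 in the control pool, a log2 ratio of -0.22 and -3.07 times its local spread. Both had lower signal in the GLUT1 pool by about the same factor, at 0.853 and 0.856 of the control signal. Each was read by 1 probe set, so no second reading was at hand.

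At the upper end of the large subunit were Rpl12 and Rpl19. Rpl12, part of the base of the stalk that calls in elongation factors, was read at 28141 in the GLUT1 pool and 25858 in the control pool, a log2 ratio of 0.12. Rpl19, which lies near the exit tunnel and forms a bridge to the small subunit, was read at 30570 and 28480 in the same order, a ratio of 0.10. Both lay within 2 local spreads of 0, at 1.69 and 1.42. Rplp0, the anchor of the stalk, was read at 23494 in the GLUT1 pool and 22983 in the control pool, with a log2 ratio of 0.033. Of the stalk proteins Rplp0, Rplp1 and Rplp2 it was the only member, since the rule leaves out a probe set that lists Rplp1 with copies of it.

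Rpl5 and Rpl11 carry the 5S RNA into the ribosome and, when free, bind Mdm2 and so stabilise p53. Rpl5 was read at 23506 in the GLUT1 pool and 24094 in the control pool, a log2 ratio of -0.034. Rpl11 was read at 21575 in the GLUT1 pool and 20513 in the control pool, a ratio of 0.074. The partners thus lay on opposite sides of 0, each by about 1 local spread or less.

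Of the proteins of the exit tunnel rim 4 were measured, where the new chain meets its first helpers. Beside Rpl19 these were Rpl26 at 26791 in the GLUT1 pool and 27334 in the control pool, Rpl35 at 22989 and 23991, and Rpl23a at 13802 and 14142. Their log2 ratios were -0.028 for Rpl26, -0.060 for Rpl35 and -0.034 for Rpl23a. The 4 had a median of -0.031, with 3 below 0, where 47.8% of all measured genes were below 0. Rpl39, a very small protein that lines the tunnel, was dimmer than most members at 3502 in the GLUT1 pool and 3673 in the control pool, a ratio of -0.067.

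The brightest large subunit probe sets read nearly alike on both arrays. Rpl23, which lies at the face turned to the small subunit, gave 32977 in the GLUT1 pool and 33258 in the control pool, a log2 ratio of -0.011. Rpl7a gave 32085 in the GLUT1 pool and 32565 in the control pool, a ratio of -0.020. Rpl3, which reaches towards the peptidyl transferase centre, gave 31367 in the GLUT1 pool and 33040 in the control pool, a ratio of -0.074. Rpl27a gave 31237 in the GLUT1 pool and 31073 in the control pool, a ratio of 0.0090. These 4 differ by at most about 1 local spread from 0. Rpl13a, which in human cells also silences interferon-responsive mRNAs when it leaves the ribosome, gave 18785 in the GLUT1 pool and 19843 in the control pool, a ratio of -0.078. Rpl22, which in mice is needed for T cell development, gave 19450 and 20238 in the same order, a ratio of -0.056. Rpl34 lay on the other side, at 17983 in the GLUT1 pool and 16965 in the control pool, a ratio of 0.085.

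The other standard large subunit genes lay within about 1 local spread of 0. Rpl4, a globular protein with a long loop in the exit tunnel, was read at 19270 in the GLUT1 pool and 20320 in the control pool, a log2 ratio of -0.075. Rpl14 had -0.067, and Rpl35a, a gene altered in the human red cell disorder Diamond-Blackfan anaemia, had -0.032 at 16751 in the GLUT1 pool and 17138 in the control pool. Rpl18 lay above 0, at 21252 in the GLUT1 pool and 20744 in the control pool, a ratio of 0.036, and so did Rpl6, at 0.026. Rpl41, the smallest ribosomal protein, was read at 25024 in the GLUT1 pool and 24774 in the control pool, a ratio of 0.016. Nearest to 0 were Rpl37a at -0.0010, Rpl27 at -0.0052 and Rpl7 at -0.0066. Over the 28 large subunit members the median was -0.015, with 18 below and 10 above 0. Of all measured genes, 47.8% were below and 52.2% above 0.

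The small subunit members had log2 ratios from -0.082 to 0.16, against -0.23 to 0.12 in the large subunit. Rps23, a decoding centre protein whose probe set was the brightest of the members, was read at 37006 in the GLUT1 pool and 36209 in the control pool, a log2 ratio of 0.033. It ranked 3 of all probe sets on the GLUT1 array and 2 on the control array. The highest deposited values were 37335 on the GLUT1 array and 37272 on the control array, and whether the brightest probe sets were near saturation was not tested. Rps6, the ribosomal protein phosphorylated by the S6 kinases downstream of mTORC1, was read at 29392 in the GLUT1 pool and 27831 in the control pool, a ratio of 0.080. This was 1.1 times its local spread.

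Of the proteins in the head of the small subunit, 5 were measured. Rps29, a zinc-binding protein near the mRNA path, was lowest, at 31836 in the GLUT1 pool and 33729 in the control pool, a log2 ratio of -0.082. Rps15, which is needed for nuclear export of the small subunit, was highest, at 19582 in the GLUT1 pool and 18440 in the control pool, a ratio of 0.088. Rps16, Rps28 and Rps3 lay between them, with ratios of 0.025, 0.016 and -0.019. Rps3 lines the entry of the mRNA channel and was read at 22416 in the GLUT1 pool and 22728 in the control pool. The 5 had a median of 0.016.

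In the body of the small subunit 7 proteins were measured. Rps3a was lowest, at 23822 in the GLUT1 pool and 25171 in the control pool, a log2 ratio of -0.078, and Rps6 was highest. Rps15a had -0.057, Rps24 -0.034 and Rps9, which guards decoding accuracy, 0.055. Rpsa, which is also known as the laminin receptor, was read at 22354 in the GLUT1 pool and 22330 in the control pool, a ratio of 0.0029. The 7 had a median of 0.0029 and all lay within 0.1 of 0, beside 58.5% of all measured genes. Of the 574 other genes in the brightest decile, 78.2% lay within 0.1. Over all 13 small subunit members the median was 0.016, with 5 below and 8 above 0. The shares over all measured genes were 47.8% below and 52.2% above.

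The medians of both subunits, -0.015 for the large and 0.016 for the small, lay on either side of 0. With quantile normalization of the arrays the small subunit median was -0.0027. The order of the subunits did not hold in other ribosomal probe sets. The array holds 31 further probe sets that list a standard ribosomal protein gene together with pseudogenes or numbered copies of it, which the rule leaves out because their signal cannot be given to 1 gene. All 31 passed the filter. In these the 17 large subunit probe sets had a median log2 ratio of 0.0063, with 6 below 0, and the 14 small subunit probe sets had -0.0093, with 8 below 0. Over all 31 the median was 0.0048, with 14 below and 17 above 0, and 25, or 80.6%, lay within 0.1. Of all measured genes 47.8% were below 0 and 58.5% within 0.1. Among the 574 other genes in the brightest decile 78.2% lay within 0.1, a share close to that of the 31. The lowest of the 31 probe sets was read at 5293 in the GLUT1 pool and 6374 in the control pool, a ratio of -0.27. The highest was read at 3620 in the GLUT1 pool and 3298 in the control pool, a ratio of 0.14. Counted with the 41 members as 1 reading per gene, they gave a median over 70 genes of 0.00014, with 35 below 0. These 31 probe sets added 2.94% of the GLUT1 array's summed signal and 2.95% of the control array's to the members' share.

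**Figure D3:**
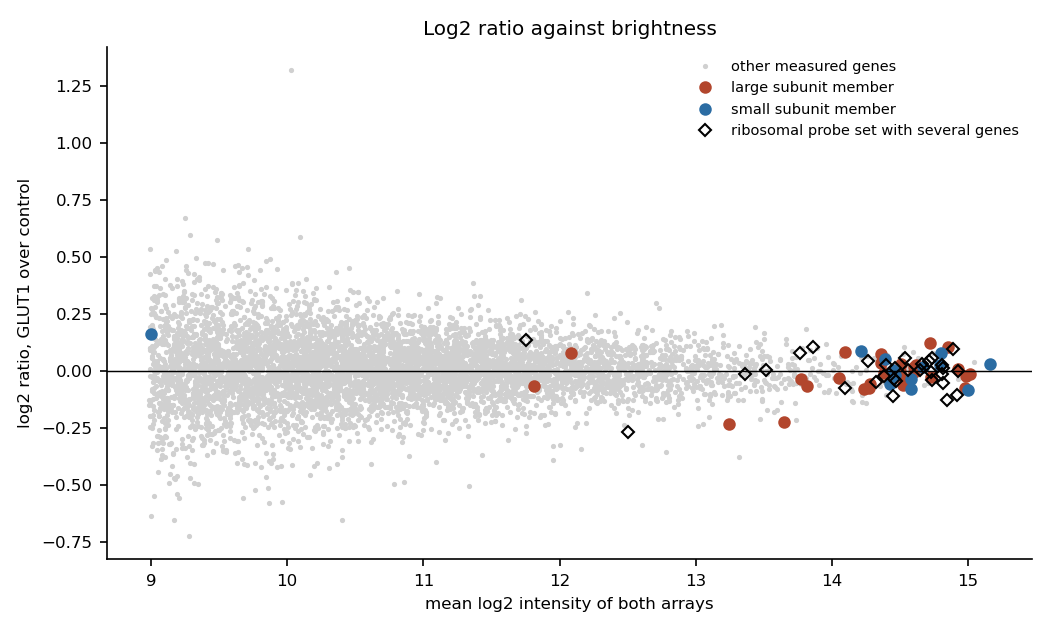
Log2 ratio, GLUT1 over control (vertical), against mean log2 intensity of both arrays (horizontal) for the 6114 measured genes. Filled points are the large and small subunit members, open diamonds the 31 ribosomal probe sets with several genes, and grey points all other measured genes. The ribosomal points gather at the bright end within the narrow band of other bright genes, with Rpl21, Rpl24 and 1 of the diamonds, at -0.23, -0.22 and -0.27, lying lower.

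Some members allowed a check by further probe sets. The 3 probe sets of Rpsa were read at 22354, 13465 and 5453 in the GLUT1 pool and 22330, 13497 and 5454 in the control pool, and their log2 ratios were 0.0029, -0.0020 and 0.0011. All 3 agree to within 0.01 although their signals differ widely. The dimmer Rpsa probe sets carry the suffixes _s_at and _x_at. Whether they are readings independent of the first was not tested. Rps24 had a bright probe set at a ratio of -0.034 and a dim one, read at 607 in the GLUT1 pool and 501 in the control pool, at 0.28. Rpl7 was read at 21314 in the GLUT1 pool and 21432 in the control pool, a ratio of -0.0066, and its second probe set, below the filter, at 361 and 258. The second probe set of Rpl14 was under the floor, at 137 in the GLUT1 pool and 122 in the control pool, against 14061 and 14739 for the first, whose ratio was -0.067. The dim Rps24 probe set lay 1.37 local spreads from 0. The second probe sets of Rpl7 and Rpl14 were too dim to check the bright ones.

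Symbols that the rule takes in but that belong to relatives of the standard proteins were dimmer than most members. Rpl7l1, named as a relative of Rpl7, was read at 4455 in the GLUT1 pool and 4219 in the control pool, a log2 ratio of 0.080, and its second probe set gave -9.3e-05. Rps27l, a p53-responsive copy of Rps27, was read at 542 in the GLUT1 pool and 485 in the control pool, a ratio of 0.16 at a local spread of 0.21. It lay just inside the filter, with a mean log2 value of 9.003. Rpl3l, the copy of Rpl3 made in striated muscle, was read at -20 in the GLUT1 pool and 27 in the control pool, and Rps4y2, a copy of the small subunit gene Rps4, at 37 and 48. These probe sets of Rpl3l and Rps4y2 lay under the floor on both arrays and have no ratio.

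Rpl30, a standard large subunit protein, was a member only through a probe set under the floor, read at 130 in the GLUT1 pool and 166 in the control pool. This reading does not show that the gene was silent. A further probe set, which lists Rpl30 together with numbered copies of it and so counts among the 31 with several genes, was bright, at 21486 in the GLUT1 pool and 23195 in the control pool, a log2 ratio of -0.11.

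Other genes of the same pathway were set beside the members. Rack1, a scaffold protein of the small subunit's head with a name outside the rule, was read at 22451 in the GLUT1 pool and 22533 in the control pool, a log2 ratio of -0.0039. Of 14 other mRNAs known for a TOP motif, 10 were on the array and measured, with a median ratio of 0.025. Of the 10, 6 were above and 4 below 0, beside 52.2% and 47.8% of all measured genes. None was at 1.1-fold, beside backgrounds of 14.7% higher and 12.6% lower, which hold mostly dimmer genes. Of the 574 non-member genes in the brightest decile, 25 were 1.1-fold higher and 23 lower. The 10 TOP mRNAs had a median intensity of 14295.5 in the GLUT1 pool and 13334 in the control pool. Farthest from 0 were Nap1l1, a histone chaperone, at 13482 in the GLUT1 pool and 12438 in the control pool, a ratio of 0.12, and Eef1b2, a subunit of the exchange factor for elongation factor 1, at 18420 and 19828, a ratio of -0.10. The genes that share the motif with the ribosomal proteins thus also lay near 0.

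Of 38 genes of ribosome assembly and RNA polymerase I, 30 were on the array and measured, and their median log2 ratio was 0.0017, with 15 above and 15 below 0. They spread more widely than the members, with an SD of 0.17, and they were dimmer, with a median intensity of 2109 in the GLUT1 pool and 2188 in the control pool. At 1.1-fold 4 were higher and 5 lower, beside backgrounds of 14.7% and 12.6%. Nop14, a factor of small subunit assembly, was read at 1337 in the GLUT1 pool and 891 in the control pool, a ratio of 0.59. Polr1b, the second largest subunit of RNA polymerase I, was read at 832 in the GLUT1 pool and 1089 in the control pool, a ratio of -0.39. Neither direction prevailed in this list.

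The 71 measured proteins of the mitochondrial ribosome, which makes the few proteins encoded by mitochondrial DNA, had a median log2 ratio of 0.060. Of these, 47 were above and 24 below 0, where 52.2% of all measured genes were above and 47.8% below. At 1.1-fold 15 were higher and 5 lower, beside backgrounds of 14.7% and 12.6%. Farthest from 0 was Mrpl14, at 933 in the GLUT1 pool and 714 in the control pool, a ratio of 0.39. Next was Mrps31, at 799 and 629 in the same order, a ratio of 0.35. The lowest ratio was that of Mrps14, at 1359 in the GLUT1 pool and 1538 in the control pool, with -0.18. The 71 genes gave 0.815% of the GLUT1 array's signal and 0.787% of the control array's. Their median intensity, 2140 in the GLUT1 pool and 2029 in the control pool, was below that of the cytosolic members, and the difference between both lists was not tested.

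**Figure D4:**
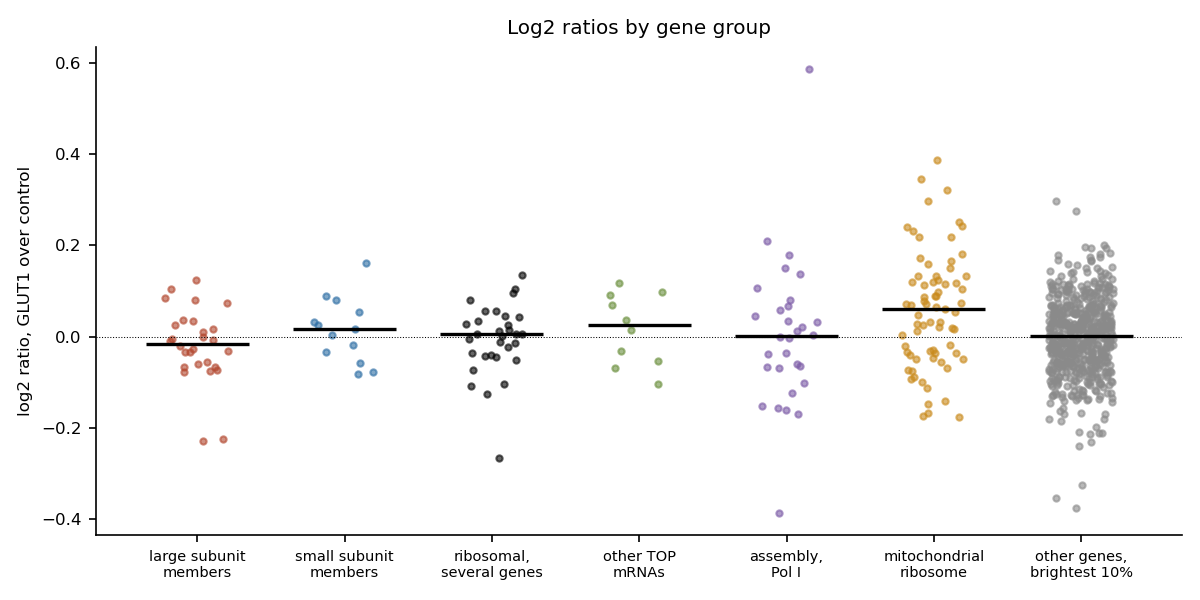
Log2 ratios, GLUT1 over control, of the measured genes of each group (points, with sideways scatter for sight only), with black lines at the medians. From left, the large and small subunit members, ribosomal probe sets with several genes, other TOP mRNAs, ribosome assembly and RNA polymerase I (Pol I) genes, mitochondrial ribosomal proteins, and the other genes of the brightest 10%. The members' medians, -0.015 and 0.016, lie near 0 and the mitochondrial median at 0.060.

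Within the members, the order of signals was kept between the arrays, where the log2 signals of the 41 genes, which share the arrays and their normalization, gave a Pearson r of 0.997 and a Spearman rho of 0.992. Between log2 ratio and mean log2 signal the same genes gave a Pearson r of -0.13 and a Spearman rho of 0.12.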

How the data were processed

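The deposited values are linear intensities of 15923 probe sets on each array, with 57 manufacturer's controls among them. The deposited intensities had nearly the same median and mean on both arrays. The software and method of normalization were not given in the sources used here. No detection call was used. Per the labels, each array read 1 pool, made from 5 µg of total RNA. The platform annotation listed 1 gene for 12783 probe sets, several for 312 and none for 2771.

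The GLUT1 array was scaled to a median ratio of 0 over the brighter probe sets, where the deposited values gave a log2 ratio of -0.0014. Values at or below the 25th percentile (175) were raised to it as a floor, and values were put on the log2 scale. A gene was its brightest probe set and counted as measured at the median of all probe sets, which kept 6114 genes. Shares used deposited values, with negative ones as 0. Calls were by size, at 2-fold and 1.1-fold. All members were accounted for, and those past 0.15, the brightest and dimmest 6, those with further probe sets and the fixed role groups were named, with the 2 farthest of each other list. Genes described outside that rule were chosen after their values were seen. The members and lists were chosen with earlier results of these data known. Alternatives were another floor, filter, scaling, probe set rule, membership and denominator. The steps were tested on simulated data (Python 3.11.15, numpy 2.4.6, pandas 2.3.3).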

Additional observations from a re-analysis of the deposited data

How the results depend on the processing

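No paired analysis was possible because only 1 pool per group was arrayed. Over the 11 alternatives of floor, filter, scaling, probe set choice and membership, the median log2 ratio of the members ran from -0.011 to 0.00014, that of the large subunit from -0.020 to -0.0031 and that of the small subunit from -0.0027 to 0.025. The highest overall median came from adding the probe sets with several genes, and the lowest small subunit median from quantile normalization. No member passed 2-fold in any of them, and the members below 0 numbered 21 to 35. The 35 came from adding the probe sets with several genes, chosen after seeing the data, which also raised the genes measured to 70. With these, counted as 1 reading per gene, the share of summed signal was 6.61% on the GLUT1 array and 6.63% on the control array. With 1 probe set per gene in the total it was 5.09% and 5.12%. The log2 ratio of the summed signal ran from -0.0060 to -0.0029. The deposited values already had nearly the same median and mean on both arrays, so the scaling alternatives say little about stability. Signal over background limits Rps27l and the members under the floor.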
